A study of Mus musculus with 12 samples.

Results

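The circadian clock genes are 10 genes that build the daily timekeeper of a cell, namely Arntl, Clock, Per1, Per2, Per3, Cry1, Cry2, Nr1d1, Nr1d2 and Dbp. They were chosen by name, as activators, repressors and output factor of the clock, and all 10 were among the 15855 genes of the count table. RNA was sequenced in EpCAM+ epithelial cells sorted from the small intestine of C57BL/6J mice. The pMCAO group held 5 mice with permanent occlusion of the middle cerebral artery, a model of stroke without return of blood flow, and the sham group held 7 mice operated on in the same way but with no artery occluded. Cells of both groups were taken 24 h after surgery, and both groups had been given ketamine and xylazine anaesthesia. The mice were adults, male unless stated otherwise, with no transgene or other allele named in the labels, each library is labelled as its own biological replicate, and all had free access to food under a light-dark cycle. The hour of the day at which each mouse was operated on or culled is not given in the sources used here.

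The clock runs as a loop of transcription. The proteins of Arntl (BMAL1) and Clock pair up and switch on the Per, Cry, Nr1d and Dbp genes, whose PER and CRY proteins then hold back that same pair, while the Nr1d proteins (REV-ERB alpha and beta) repress Arntl. Arntl messenger RNA therefore peaks at about the opposite time of day to Nr1d1 and Dbp in peripheral tissues, and in the gut the phase follows feeding as well as light. Per1 and Per2 also answer to hormones and other signals outside the loop.

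The levels below are written as CPM, the counts of a gene relative to all counts of its library, scaled by the trimmed mean of M-values (TMM), and differences are on the log2 scale. Total counts ran from 7418730 to 31925579 per library, and 3 counts stood for between 0.0692 and 0.724 CPM on the TMM scale. The libraries were put into 4 blocks by the order of the library numbers in the sample titles. A new block started where a pMCAO library followed a sham library or where a number was skipped. The group labels thus helped to set the blocks. Block 1 held 3 sham and 1 pMCAO libraries, block 2 held 2 and 2, block 3 held 1 and 2, and block 4 held sham replicate 7 alone. Nothing in the labels says that a block is a day or an hour of collection. Block 1 stood apart, with 13386 to 14712 genes detected against 15343 to 15766 in the other 8 libraries, and with 34.8% to 54.5% of counts on mitochondrial ribosomal RNA against 14.6% to 35.2%. In block 1 the summed level of the 5 goblet cell markers was 3215 to 5779 CPM against 15870 to 39630 CPM elsewhere, that of the 4 enteroendocrine markers 141.7 to 231 against 978 to 1897, and that of the 3 tuft cell markers 8.09 to 34.3 against 124 to 596. All 6 epithelial markers were present, summing to 3862 to 8044 CPM, whereas the 7 leukocyte markers summed to 42.6 to 243.7 CPM. Of the 7 stromal and vessel markers only Pecam1 was in the table, at 0.0768 to 5.25 CPM. In bulk RNA a smaller number of cells of a type and less RNA per cell cannot be told apart.

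Clock binding sites in the promoters are shown first, since the loop is written in them. RefSeq promoter windows (GRCm38.p6) from 250 bases before to 50 bases after a transcript start were matched for 9 of the 10 genes, 13 windows in all, and Per2 had no entry. Each was searched on both strands for the E-box CACGTG of BMAL1 and CLOCK, the D-box TTATGTAA or TTACGTAA of DBP and its relatives, and the core TAGGTCA or TGGGTCA of the element shared by ROR and REV-ERB. Of the 13 windows, 4 held a match, no window held more than 1 kind, and the matches stand in capitals below, each window written 5′ to 3′ on the strand of its gene. The Arntl window (chr7:113207261-113207560, plus strand) holds 1 ROR core, the Per1 window (chr11:69098699-69098998, plus strand) 1 E-box, the Cry1 window (chr10:85185005-85185304, minus strand) 1 E-box and the Per3 window (chr4:151044616-151044915, minus strand) 2 D-boxes.
Arntl: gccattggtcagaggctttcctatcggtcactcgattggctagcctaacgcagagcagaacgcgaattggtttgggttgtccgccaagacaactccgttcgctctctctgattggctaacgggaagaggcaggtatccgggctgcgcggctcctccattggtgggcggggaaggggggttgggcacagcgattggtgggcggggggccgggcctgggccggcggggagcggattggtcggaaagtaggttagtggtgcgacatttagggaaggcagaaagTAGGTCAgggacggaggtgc
Per1: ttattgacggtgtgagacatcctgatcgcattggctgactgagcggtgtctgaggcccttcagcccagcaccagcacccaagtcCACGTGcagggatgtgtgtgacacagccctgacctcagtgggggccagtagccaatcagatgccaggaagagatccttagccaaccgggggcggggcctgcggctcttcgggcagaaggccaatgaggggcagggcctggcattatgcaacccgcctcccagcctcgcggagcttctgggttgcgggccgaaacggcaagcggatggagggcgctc
Cry1: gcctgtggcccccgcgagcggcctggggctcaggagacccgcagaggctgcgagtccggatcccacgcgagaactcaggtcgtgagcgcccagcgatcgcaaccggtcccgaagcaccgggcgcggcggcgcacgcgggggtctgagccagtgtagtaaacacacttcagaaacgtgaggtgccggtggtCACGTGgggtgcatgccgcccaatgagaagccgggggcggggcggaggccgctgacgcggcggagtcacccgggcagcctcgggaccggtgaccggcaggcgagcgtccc
Per3: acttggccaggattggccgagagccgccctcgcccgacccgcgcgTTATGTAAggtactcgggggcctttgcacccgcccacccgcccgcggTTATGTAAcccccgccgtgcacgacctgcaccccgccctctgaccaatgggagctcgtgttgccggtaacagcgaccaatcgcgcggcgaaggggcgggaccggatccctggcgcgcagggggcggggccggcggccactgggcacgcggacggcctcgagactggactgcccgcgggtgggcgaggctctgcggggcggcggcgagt
Among all 32851 promoter windows of the same length, 7.15% held the E-box, 1.06% a D-box and 6.45% a ROR core. A match describes these letters alone, and a window without one says nothing about binding elsewhere.

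All 10 clock genes were detected in the gut epithelium, but over a wide range. Per kilobase of exon, the mean over the 12 libraries was highest for Nr1d1 at 22.2 ± 9.57 CPM per kb (SD, n = 12), above 93.4% of the genes of the table. Cry1 at 10.4 ± 8.07, Clock at 9.84 ± 1.57, Per2 at 8.07 ± 2.62, Arntl at 5.76 ± 3.18, Per1 at 4.68 ± 1.57, Nr1d2 at 4.19 ± 1.42 and Cry2 at 3.42 ± 1.08 CPM per kb followed, and from Cry1 to Cry2 neighbours in this order differed by less than the larger SD of the pair. Per3 at 0.996 ± 0.403 and Dbp at 0.831 ± 0.51 CPM per kb were the lowest, and they differed from each other by less than either SD. Npas2, a close relative of Clock that can stand in for it as the partner of BMAL1, reached 20.3 ± 7.45 CPM per kb.

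The first comparison asked whether the clock genes differed between pMCAO and sham-operated mice. A gene was called where its limma-voom p, adjusted by Benjamini-Hochberg over the 14462 genes tested, was 0.05 or less. On the group alone 0 of the 10 were called, against 0.0% of all genes. At an unadjusted p under 0.05, 0 of the 10 passed against 8.43% of all genes. The fitted difference was above 0 for 3 genes and below 0 for 7, with a median of -0.33 against 0.06 over all genes. The 10 genes also gave 0 calls with edgeR's quasi-likelihood test and with DESeq2. The values of each gene follow by role, and the 2 groups overlapped for every one of them.

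**Figure D1:**
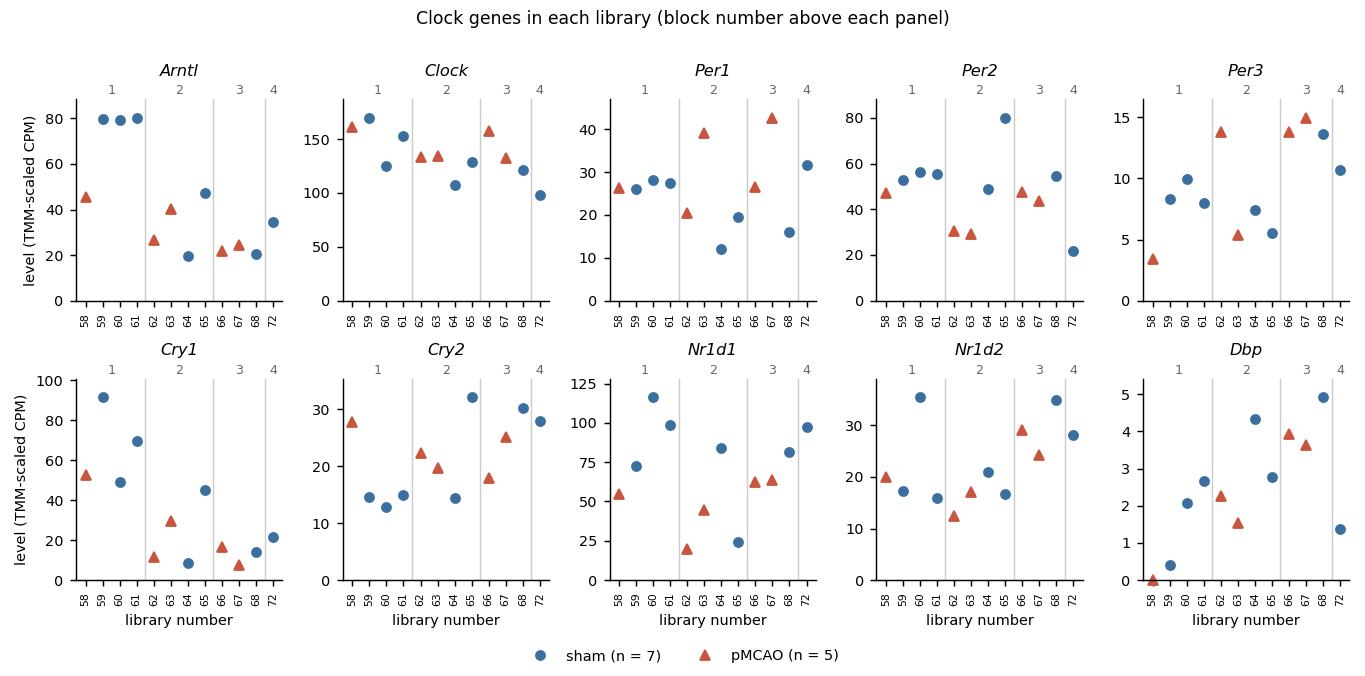
Level of each clock gene in TMM-scaled CPM (y axis, linear from 0) in the 12 libraries ordered by library number (x axis), circles for sham and triangles for pMCAO, with grey lines between the 4 blocks. Arntl and Cry1 are high in block 1, Dbp is low there, and Per2 of 6 of 7 sham libraries lies above every pMCAO library.

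Arntl (chr7:113207465-113314126, plus strand) encodes BMAL1, the activator whose loss stops the clock. It stood at 45.4, 26.5, 40.2, 21.7 and 24.5 CPM in pMCAO replicates 1 to 5, and from 19.8 to 80.35 CPM with a median of 47.2 CPM in the sham group. The 3 sham libraries of block 1 were the highest, at 79.4 to 80.35 CPM, and the pMCAO library of that block lay below them. The log2 difference was -0.46 ± 0.36 (SE; limma-voom adjusted p = 0.732), and it was 0.00 when block 1 was left out. Clock (chr5:76209868-76304792, minus strand), the partner of BMAL1, had the steadiest level of the 10 genes relative to its mean. It stood at 160.8, 133, 134, 157 and 133 CPM in the pMCAO libraries and at 98.4 to 169.8 CPM, median 125.4 CPM, in the sham libraries. All 5 pMCAO libraries lay above the sham median, with 2 of 7 sham libraries among or above them, and the log2 difference was 0.18 ± 0.17 (adjusted p = 0.785).

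Per1 and Per2 encode period proteins, which bind the cryptochromes and carry them to the nucleus. Per1 (chr11:69095217-69109960, plus strand) stood at 26.3, 20.45, 39.2, 26.6 and 42.7 CPM in the pMCAO libraries and at 11.98 to 31.7 CPM, median 25.96 CPM, in the sham libraries. The 2 highest of the 12 libraries were pMCAO replicates 5 and 3, and the 3 lowest were sham replicates 4, 6 and 5. The difference of Per1 was 0.52 ± 0.26 on the log2 scale (adjusted p = 0.607). Per2 (chr1:91415982-91459324, minus strand) stood at 46.9, 30.5, 29.1, 47.45 and 43.6 CPM in the pMCAO libraries and at 21.5 to 80.1 CPM, median 54.5 CPM, in the sham libraries. In 6 of the 7 sham libraries Per2 was above every pMCAO library, and sham replicate 7, the single library of block 4, was the lowest of the 12. The difference was -0.36 ± 0.27 (adjusted p = 0.717), and -0.60 without sham replicate 7 (adjusted p = 0.311). With each library left out in turn, the group alone gave -0.596 to -0.218.

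In a fit of group with library block, in which sham replicate 7 carries no information on the group, these 2 period genes had the lowest p-values of the 10. The difference of Per1 was then 0.70 on the log2 scale, with a 95% interval of 0.15 to 1.24 (unadjusted p = 0.0159, adjusted p = 0.267). That of Per2 was -0.63, with a 95% interval of -1.03 to -0.22 (unadjusted p = 0.00449, adjusted p = 0.176). Neither was called, whereas 0.477% of all genes were, and 2 of the 10 clock genes had an unadjusted p under 0.05 against 12.7% of all genes. Per2 was lower in pMCAO within each of blocks 1, 2 and 3, with differences of -0.22, -1.07 and -0.26 in log2 CPM. Per1 was higher within blocks 2 and 3, by 0.88 and 1.07, and at -0.05 within block 1. Leaving out 1 library at a time, the block fit gave 0.46 to 0.96 for Per1, the lowest without sham replicate 6, and -0.81 to -0.37 for Per2, the value nearest to 0 without sham replicate 5.

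Cell type markers were compared between the groups in the same fits, in which 8.43% of all genes had an unadjusted p under 0.05 on the group alone and 12.7% with library block. All 5 enterocyte markers had a difference above 0 in both fits, and their summed level was 8095 to 20760 CPM in the pMCAO libraries and 5669 to 13340 CPM in the sham libraries. The highest sum was that of the 1 pMCAO library of block 1, and in blocks 2 to 4 the sums reached 16230 CPM. On the group alone 0 of the 5 were called and 3 had an unadjusted p under 0.05, and with library block 3 did and 1 was called, Sis, the brush border sucrase-isomaltase (0.73 ± 0.14, adjusted p = 0.0337). Without block 1 but with library block, a fit added after seeing the data, all 5 stayed above 0 and 1 had an unadjusted p under 0.05. There Sis was at 0.585 and not called (adjusted p = 0.479), and Fabp2, Anpep, Lct and Alpi were at 0.061, 0.075, 0.152 and 0.153. Of the 5 goblet cell markers, 0 had an unadjusted p under 0.05 on the group alone and 3 did with library block, all higher in pMCAO, and 0 were called. With library block, 2 of 7 leukocyte and 1 of 6 epithelial markers were higher and 1 of 3 tuft cell markers lower at an unadjusted p under 0.05, and 0 of these were called. The part of cell makeup in the group differences of the clock genes was not tested.

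**Figure D2:**
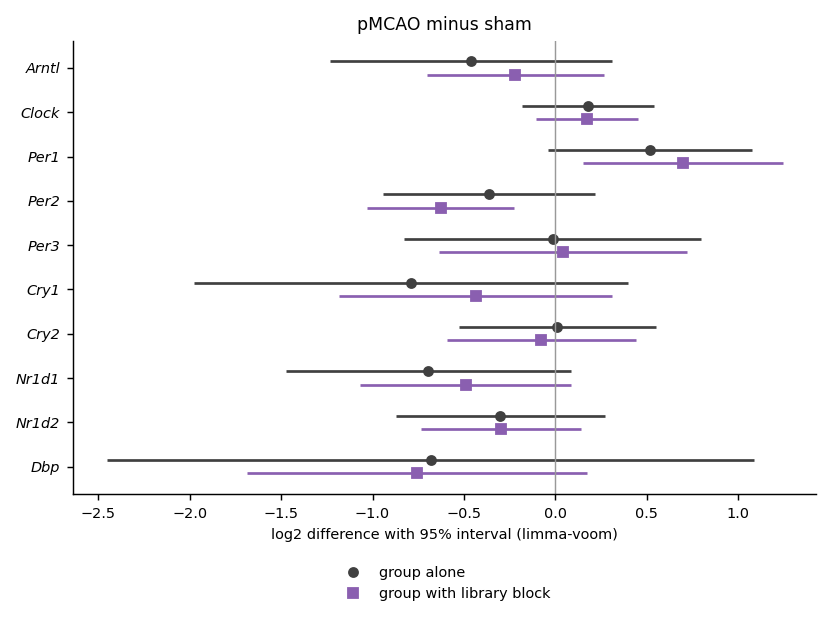
Log2 difference of pMCAO minus sham (x axis) with its 95% interval for each clock gene (y axis), from limma-voom on the group alone (circles) and with library block (squares). All 10 intervals of the group alone include 0, and with library block those of Per1 and Per2 do not.

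The ratio of Per1 to Per2 within a library does not depend on library scaling, and it was looked at after the values of both genes had been seen, so it is given without a test. The log2 ratio of Per1 to Per2 counts was -0.83, -0.58, 0.43, -0.84 and -0.03 in pMCAO replicates 1 to 5. In sham replicates 1 to 7 it was -1.02, -0.99, -1.01, -2.03, -2.03, -1.77 and 0.56. Within blocks 1, 2 and 3 every pMCAO library lay above every sham library of its block, and over those blocks the 6 sham libraries ended at -0.99 where the 5 pMCAO libraries began at -0.84. Sham replicate 7 in block 4 had the highest ratio of all, so that over the 12 libraries the groups overlapped.

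**Figure D3:**
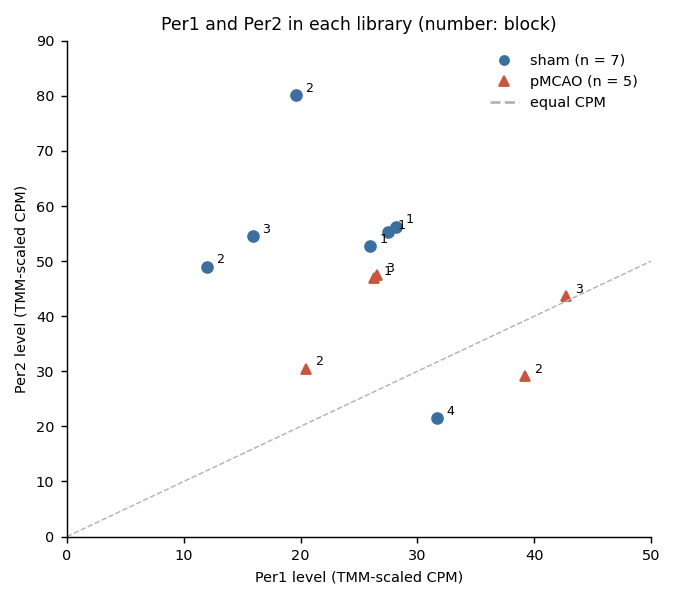
Per1 level (x axis) against Per2 level (y axis), both in TMM-scaled CPM, 1 point per library with its block number beside it, circles for sham and triangles for pMCAO, and a dashed line at equal CPM. Relative to the line, the 5 pMCAO points lie on the side of more Per1 for their Per2 than the 6 sham points of blocks 1 to 3, and the sham library of block 4 lies apart from the other sham libraries.

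Per3 (chr4:151003652-151044665, minus strand), the period gene least needed for the loop, stood at 3.42, 13.8, 5.35, 13.8 and 14.98 CPM in the pMCAO libraries and at 5.49 to 13.7 CPM, median 8.28 CPM, in the sham libraries. The pMCAO libraries held both the lowest and the highest values of the 12, and the difference was -0.02 ± 0.38 (adjusted p = 0.994), which turned positive with library totals in place of TMM factors (0.25).

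Cry1 and Cry2 encode the cryptochromes, the strongest repressors of BMAL1 and CLOCK. Cry1 (chr10:85131700-85185064, minus strand) stood at 52.55, 11.7, 29.3, 16.5 and 7.36 CPM in the pMCAO libraries and at 8.52 to 91.4 CPM, median 44.99 CPM, in the sham libraries. The 4 highest of the 12 libraries, at 48.9 to 91.4 CPM, were those of block 1, and the log2 difference between the groups was -0.79 ± 0.56 (adjusted p = 0.701). Cry2 (chr2:92403646-92434043, minus strand) stood at 27.8, 22.25, 19.6, 17.9 and 25.1 CPM in the pMCAO libraries and at 12.9 to 32.1 CPM, median 14.96 CPM, in the sham libraries. The 5 pMCAO libraries all lay between the 4 lowest sham libraries, at 12.9 to 14.96 CPM, and the 3 highest, at 27.98 to 32.1 CPM. The difference of Cry2 was 0.01 ± 0.25 (adjusted p = 0.994), and -0.08 with library block. Whether the counting used strand is not given in the sources used here, and 4.67% of the Cry2 exon bases are shared with D930015M05Rik on the opposite strand.

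Nr1d1 and Nr1d2 encode the REV-ERB receptors, which bind haem and repress Arntl. Nr1d1 (chr11:98767932-98775333, minus strand) stood at 54.9, 19.9, 44.5, 62.65 and 63.5 CPM in the pMCAO libraries and at 24.35 to 116.3 CPM, median 83.7 CPM, in the sham libraries. As with Per2, 6 of the 7 sham libraries were above every pMCAO library, here at 72.5 to 116.3 CPM, and the exception was sham replicate 5. The log2 difference of Nr1d1 was -0.69 ± 0.37 (adjusted p = 0.618), -0.99 without sham replicate 5 (adjusted p = 0.392) and -0.49 with library block (adjusted p = 0.478). With each library left out in turn, the group alone gave -0.989 to -0.395. Nr1d1 shares 263 exon bases, 8.55% of its length, with Thra on the opposite strand, whose reads there could not be told apart from its own if the counting ignored strand, and Thra itself differed by -0.06 ± 0.21. Nr1d2 (chr14:18204054-18239127, minus strand) stood at 19.99, 12.4, 17.2, 29.1 and 24.25 CPM in the pMCAO libraries and at 15.9 to 35.5 CPM, median 21 CPM, in the sham libraries. The groups overlapped over most of their range, and the difference was -0.30 ± 0.27 (adjusted p = 0.766).

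Dbp (chr7:45705088-45710203, plus strand) encodes a PAR-domain factor that passes the rhythm on to output genes through D-boxes. It was the lowest of the 10 per length, with 0, 97, 66, 49 and 96 counts in pMCAO replicates 1 to 5 and 5 to 192 counts in the sham libraries. These counts were 0, 2.27, 1.52, 3.92 and 3.62 CPM in the pMCAO libraries and 0.398 to 4.92 CPM, median 2.65 CPM, in the sham libraries. The count of 0 in pMCAO replicate 1 allows a level of up to 0.256 CPM, by counting error only. The difference was -0.68 ± 0.84 (adjusted p = 0.841), and 18% of the Dbp exon bases are shared with Sphk2 on the opposite strand, at 15.7 to 49.95 CPM in these libraries.

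The second comparison asked whether the clock genes differed between the blocks of libraries, with group in the fit. By the F-test of the 3 block terms, 2 of the 10 were called against 17.7% of all genes. These were Arntl (limma-voom adjusted p = 0.00796) and Cry1 (adjusted p = 0.0075), and without pMCAO replicate 1 the call of Cry1 was lost. Between block 1 and the mean of blocks 2 and 3, 3 of the 10 were called against 19.5% of all genes, 2 of them higher in block 1 (9.45% of all genes) and 1 lower (10.1%). Of 10 genes, these counts lay near those shares of the whole table.

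Arntl and Cry1 were the 2 called higher in block 1. Arntl averaged 71.2 ± 17.2 CPM (SD, n = 4) in block 1, 33.4 ± 12.5 (n = 4) in block 2 and 22.2 ± 2.06 (n = 3) in block 3, and its level in sham replicate 7 was 34.6 CPM. The log2 difference of Arntl was 1.26 ± 0.24 (adjusted p = 0.00278). Cry1 averaged 65.7 ± 19.4, 23.6 ± 16.9 and 12.6 ± 4.7 CPM in the same blocks, a log2 difference of 1.96 ± 0.36 (adjusted p = 0.00219). Dbp moved the other way, from 1.28 ± 1.28 CPM in block 1 to 2.72 ± 1.19 and 4.15 ± 0.679 CPM in blocks 2 and 3. Its log2 difference of -2.60 ± 0.83 (adjusted p = 0.0379) rested on 0, 5, 10 and 11 counts in block 1 and lost its call without sham replicate 1 (adjusted p = 0.184), sham replicate 4 (0.0511), pMCAO replicate 1 (0.141) or pMCAO replicate 4 (0.0504), and by edgeR (0.0796).

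The other 7 clock genes did not pass in this contrast, at -0.67 ± 0.44 for Per3, -0.39 ± 0.31 for Cry2, -0.18 ± 0.25 for Nr1d2, 0.02 ± 0.21 for Per2, 0.27 ± 0.29 for Per1, 0.28 ± 0.14 for Clock and 0.55 ± 0.29 for Nr1d1. Scaling matters here, since the median of all genes was -0.15 with TMM factors, -0.94 with library totals and -0.53 with totals without mitochondrial genes, and the higher share of the calls was 48.3%, 1.67% and 14.9%. With library totals the differences of Clock, Per1, Per2 and Nr1d1 turned negative and Arntl, at 0.49, was no longer called (adjusted p = 0.171). Relative to the median of all genes the differences were 1.40, 1.42 and 1.39 for Arntl under the 3 scalings, 2.10, 2.11 and 2.09 for Cry1, and -2.45, -2.47 and -2.43 for Dbp. With TMM factors 9.45% of all genes were called higher in block 1 and 10.1% lower. In the same contrast 5 of 5 goblet, 4 of 4 enteroendocrine and 3 of 3 tuft cell markers were called lower in block 1, whereas of the 6 epithelial markers 4 were called higher and 1, Krt19, lower (-1.999 ± 0.22). Of the 5 enterocyte markers Alpi was called higher (0.97 ± 0.23), and Sis (-0.98 ± 0.15) and Anpep (-1.08 ± 0.19) lower. The part of cell makeup and RNA quality in the block differences of the clock genes was not tested.

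**Figure D4:**
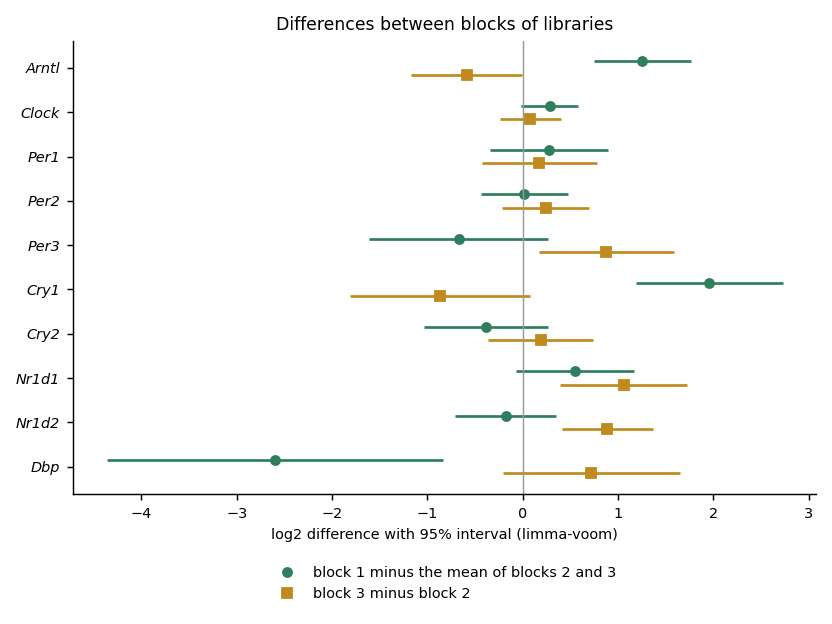
Log2 difference between blocks of libraries (x axis) with its 95% interval for each clock gene (y axis), from limma-voom with group and block, as block 1 minus the mean of blocks 2 and 3 (circles) and block 3 minus block 2 (squares). The intervals of Arntl and Cry1 lie above 0 and that of Dbp below 0 in the first contrast. In the second those of Nr1d1, Nr1d2 and Per3 lie above 0 and that of Arntl below 0.

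Blocks 2 and 3 held both groups and were alike in genes detected. Between them 0 of the 10 clock genes were called, against 0.00691% of all genes by limma-voom, and 0 by edgeR or DESeq2. At an unadjusted p under 0.05, 4 of the 10 passed against 9.81% of all genes. Nr1d1 at 1.06 ± 0.31 (unadjusted p = 0.00386, adjusted p = 0.267), Nr1d2 at 0.89 ± 0.22 (0.00113, adjusted 0.192) and Per3 at 0.88 ± 0.34 (0.0185, adjusted 0.399) were higher in block 3 on the log2 scale, and Arntl was lower at -0.59 ± 0.28 (0.0486, adjusted 0.506). Cry1 at -0.87 ± 0.45 and Dbp at 0.72 ± 0.44 did not pass. All 3 libraries of block 3 held more Nr1d2, at 24.25 to 34.9 CPM, than any library of block 2, at 12.4 to 21 CPM. Per3 did not separate these blocks, with 13.7 to 14.98 CPM in block 3 and 5.35 to 13.8 CPM in block 2. Cell type markers differed between these blocks too, though 0 of the enterocyte, tuft, leukocyte and stem cell markers were called. At an unadjusted p under 0.05, 3 of 5 enterocyte and 2 of 3 tuft cell markers were higher in block 3. By the same threshold 3 of 7 leukocyte and 2 of 4 stem and proliferating cell markers were lower. The part of cell makeup in these differences was not tested.

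The balance of activators and repressors was taken in each library as the mean log2 CPM of Arntl and Clock minus the mean of the 7 repressor genes (Per1, Per2, Per3, Cry1, Cry2, Nr1d1 and Nr1d2). A higher value means more activator relative to repressor transcript. It was 1.74, 1.74, 1.72, 1.13 and 1.13 in pMCAO replicates 1 to 5 and 1.98, 1.60, 1.90, 1.26, 1.67, 0.82 and 1.08 in sham replicates 1 to 7. The groups averaged 1.49 ± 0.33 (SD, n = 5) and 1.47 ± 0.43 (SD, n = 7), a difference within their spread, and they overlapped. By block the mean was 1.81 ± 0.17 (n = 4) in block 1, 1.60 ± 0.23 (n = 4) in block 2, 1.03 ± 0.18 (n = 3) in block 3 and 1.08 in the single library of block 4, and the 4 libraries of blocks 3 and 4 were the lowest of the 12.

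A second index, Arntl minus the mean of Nr1d1 and Dbp, sets genes that peak at opposite times of day against each other. It was 4.27, 1.95, 2.24, 0.46 and 0.68 in the pMCAO libraries and 3.73, 2.32, 2.29, 0.04, 2.50, 0.03 and 1.53 in the sham libraries, and the groups averaged 1.92 ± 1.53 and 1.78 ± 1.35. The block means were 3.15 ± 1.00, 1.68 ± 1.12, 0.39 ± 0.33 and 1.53. Sham replicates 4 and 6 had the lowest values of the 12 by this index, and the other 3 libraries of the block of sham replicate 4 lay at 1.95 to 2.50. The balance genes overlap with those that differed between blocks, so neither index is further evidence of a block difference. No library could be given an hour of the day. Collection time, the rhythm of each gene in this tissue and cell makeup differences between blocks cannot be told apart from 1 library per mouse.

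**Figure D5:**
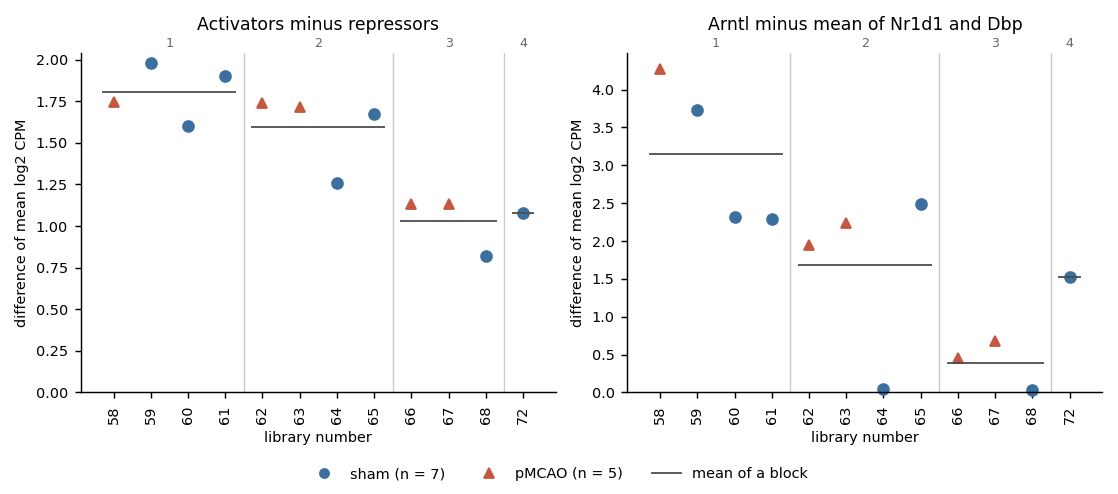
Balance of activators over repressors (left) and Arntl minus the mean of Nr1d1 and Dbp (right), as differences of mean log2 CPM (y axis) in each library by number (x axis), circles for sham, triangles for pMCAO, horizontal lines for block means and grey lines between the 4 blocks. By block mean both indices are highest in block 1 and lowest in block 3. On the right, libraries of a block can lie far apart. There pMCAO replicate 1 is at 4.27 against 2.29 to 3.73 in the sham libraries of block 1. Sham replicate 4 is at 0.04 against 1.95 to 2.24 in the pMCAO libraries of block 2.

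Pairs of clock genes were compared over the 8 libraries of blocks 2 to 4, leaving out block 1 because it stood apart. Of the 45 pairs, 0 passed an adjusted p of 0.05 by the exact permutation test of Pearson's r (two-sided), and 4 had an unadjusted p under 0.05. Nr1d1 and Nr1d2 moved together with r = 0.855 (exact permutation p = 0.00556, adjusted 0.1775) and rho = 0.69 (exact p = 0.0694), and r was 0.602 without the 2 libraries farthest from the median of Nr1d1. Arntl and Cry1 had r = 0.851 (exact permutation p = 0.00789, adjusted 0.1775) and rho = 0.738 (exact p = 0.0458), with r = 0.51 without the 2 farthest libraries. Arntl and Dbp were opposed, at r = -0.74 (exact permutation p = 0.0415, adjusted 0.467), rho = -0.81 (exact p = 0.0218) and r = -0.969 without the 2 farthest. With block means subtracted over the 7 libraries of blocks 2 and 3, a choice made after seeing the data, r was -0.628 for Arntl and Dbp, 0.822 for Arntl and Cry1 and 0.814 for Nr1d1 and Nr1d2. Over all 12 libraries with block means subtracted, block 1 and its Dbp counts of 0 to 11 included, these values were 0.341, 0.721 and 0.606. Per2 and Dbp gave r = 0.734 (exact permutation p = 0.0402, adjusted 0.467) and rho = 0.762 (exact p = 0.0368), r = 0.973 without the 2 farthest, and with block means subtracted 0.604 over blocks 2 and 3 and 0.319 over all 12.

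The rest of the clock pathway was followed in lists of genes by role. Of 10 further loop genes, 8 were in the table and 7 were tested, and 0 were called between the groups. At an unadjusted p under 0.05, 2 of the 7 passed against 8.43% of all genes. Npas2 was at 86.6, 65.4, 85.8, 61.2 and 62.4 CPM in the pMCAO libraries and at 70.0 to 172.4 CPM, median 128.6 CPM, in the sham libraries. It differed by -0.63 ± 0.23 (unadjusted p = 0.0141, adjusted p = 0.495), and by -0.56 ± 0.15 with library block (adjusted p = 0.133). Rora, an activator of Arntl, had an unadjusted p of 0.0397, but it was near the limit of detection in the sham libraries, at 0 to 0.583 CPM. In pMCAO replicates 1 to 5 it had 1, 288, 33, 18 and 26 counts, or 0.0854 to 6.73 CPM, with the highest level in replicate 2 alone. In block 1 minus blocks 2 and 3, 3 of the 7 were called, all higher, against 19.5% of all genes called and 9.45% called higher. Among them were Npas2 (0.54 ± 0.17, adjusted p = 0.0303) and Bhlhe40, which represses clock genes at E-boxes (0.65 ± 0.16, adjusted p = 0.0108). Between blocks 3 and 2, 0 of the 7 were called and 3 had an unadjusted p under 0.05, against 9.81% of all genes. These were Bhlhe40 at -0.43 ± 0.18 and the Dbp relatives Hlf at 2.40 ± 1.09 and Tef at 0.94 ± 0.22, of which Tef had the lowest adjusted p (0.149). Hlf held 0, 11, 2 and 184 counts in the libraries of block 2 and 120, 50 and 29 in those of block 3. Its levels overlapped, at 0 to 4.24 CPM in block 2 and 1.09 to 4.00 CPM in block 3.

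Of the 10 genes for the kinases, phosphatase and ubiquitin machinery that act on clock proteins, 0 were called between the groups. At an unadjusted p under 0.05, 1 of them passed against 8.43% of all genes, Ppp1cc (0.91 ± 0.29, adjusted p = 0.39). Between block 1 and blocks 2 and 3, 1 of the 10 was called against 19.5% of all genes, Usp2, a rhythmic deubiquitinase, at -2.60 ± 0.86 (adjusted p = 0.0449). This call rested on 20, 37, 0 and 27 counts in block 1. Levels of Usp2 overlapped, at 0 to 7.67 CPM in block 1 and 5.55 to 17.3 CPM in blocks 2 to 4. Of the 8 clock-controlled genes, 0 were called between the groups and 2 had an unadjusted p under 0.05, against 8.43% of all genes. Wee1, a cell cycle kinase gene known as a direct target of the clock, stood at 1.62, 0.678, 4.77, 1.36 and 2.75 CPM in the pMCAO libraries and at 2.40 to 15.3 CPM, median 8.44 CPM, in the sham libraries. Its difference was -1.82 ± 0.60 (adjusted p = 0.427), and -2.18 ± 0.53 with library block (adjusted p = 0.0814). Within each of blocks 1, 2 and 3 Wee1 was lower in pMCAO, at -2.65, -2.38 and -1.19 in log2 CPM. Nampt, the enzyme of NAD+ salvage, differed by 0.56 ± 0.19 (adjusted p = 0.438). Noct, a rhythmic phosphatase listed as Ccrn4l, was higher in block 1 by 1.16 ± 0.20 (adjusted p = 0.0013), as was Por (0.84 ± 0.23, adjusted p = 0.02). These were the 2 of 8 called there, against 19.5% of all genes.

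Of 8 gut transport and lipid genes with a known daily rhythm, 0 were called between the groups and 2 had an unadjusted p under 0.05, against 8.43% of all genes. The lower p of these was that of Slc5a1, the sodium-glucose cotransporter of the brush border, at 0.92 ± 0.27 on the log2 scale (adjusted p = 0.338) and 0.61 ± 0.15 with library block (adjusted p = 0.0815). Between block 1 and blocks 2 and 3, 5 of the 8 were called, in both directions, against 19.5% of all genes. The peptide transporter gene Slc15a1 (0.51 ± 0.13, adjusted p = 0.0141) and the lipoprotein genes Apob (0.93 ± 0.20, adjusted p = 0.00486) and Apoa4 (0.98 ± 0.27, adjusted p = 0.0199) were higher in block 1. Slc5a1 (-0.56 ± 0.16, adjusted p = 0.022) and the basolateral sugar transporter gene Slc2a2 (-1.12 ± 0.32, adjusted p = 0.0212) were lower. Between blocks 3 and 2, 0 of the 8 were called and 4 had an unadjusted p under 0.05, against 9.81% of all genes. All 4 were higher in block 3, among them Slc5a1 (0.94, adjusted p = 0.102), Slc2a2 (1.31 ± 0.31, adjusted p = 0.153) and Slc15a1 (0.60 ± 0.15, adjusted p = 0.186).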

How the data were processed

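Bulk RNA-seq was available for 12 libraries, 7 sham and 5 pMCAO, each labelled as a biological replicate. Per the authors' notes, reads were aligned with STAR to GRCm38 and assigned to genes with featureCounts, with versions not given. The authors deposited raw counts per gene for 15855 genes, all of which met 0.5 CPM in at least 4 samples. They also deposited CPM values, and all 190260 of 190260 equalled counts scaled by library total alone (tolerance 0.001). The deposited values thus hold no TMM factor, unlike the levels given here. The file's columns of log2 fold change, average expression, p-value and FDR were not used, and 0 value columns were left unmatched to a sample.

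Counts were scaled by TMM, filtered with filterByExpr (edgeR 4.0.16, run in R 4.3.3) and fitted by limma-voom, from version 3.58.1 of limma, with a minimum count of 10 in the filter, which kept 14462 genes and removed 1393. Group alone was the main comparison, since the collection day that the study corrected for is not in the labels. Library blocks follow the order of library numbers in the titles and were tested with group in the fit. A new block starts where a pMCAO library follows a sham library or where a number is skipped, so the blocks were set partly from the group labels. P-values were adjusted by Benjamini-Hochberg over all genes tested and called at 0.05. Log2 CPM used a prior count of 2. The fits recovered large known changes in well-counted genes of simulated data. Smaller changes, changes in genes of few counts and the F-test of the blocks were not simulated. Alternatives were DESeq2 1.42.0, the quasi-likelihood test of edgeR, library totals with or without mitochondrial genes, other filters, block terms, sample quality weights and each library left out. Levels per length used merged exon bases of the GRCm38 annotation.

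The members and all gene lists were chosen with earlier results of these data known. All 10 members are named, and of other lists the genes with an unadjusted p under 0.05 or the largest changes. Genes most like Arntl and Dbp were the 5 highest and 5 lowest by Pearson's r. Usp2, Ppp1cc and the genes called between blocks were named by the same rule or after their values were seen. Limits from counts cover counting error only. The intervals of the group and block differences come from the limma-voom fits and include the spread between libraries. One gene of the loop list and 1 of the gut transport list are not reported here on their own.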

Additional observations from a re-analysis of the deposited data

Results flagged for a closer look

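Within each group, the sample farthest from the rest was compared with Dixon's critical value for each of the 10 clock genes and the 2 balance indices, 24 groups in all. Chance passes about 1 in 20 such groups, and 3 passed. Per2 in sham replicate 7 was 4.432 in log2 CPM, against 5.840 ± 0.248 (SD, n = 6) in the other sham libraries, with the nearest at 5.615. Nr1d1 in sham replicate 5 was 4.612, against 6.501 ± 0.243 (SD, n = 6) in the others, with the nearest at 6.182. Dbp in pMCAO replicate 1 was -3.301 in log2 CPM from a count of 0, against 1.462 ± 0.610 (SD, n = 4) in the other pMCAO libraries, with the nearest at 0.699. These values fell on 3 different genes and 3 different libraries, in blocks 4, 2 and 1.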

How the results depend on the processing

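Between pMCAO and sham, 0 clock genes were called under every alternative but the replicate block. Over all genes the calls numbered 0 by limma-voom, 84 by DESeq2, 3 with library totals, 7 with totals without mitochondrial genes, 69 with library block, 5 in blocks 1 to 3 only and 20 with sample quality weights. Chosen after seeing the data, edgeR with library block gave 23 and DESeq2 with it 191. With the replicate block, in the samples with a partner, 380 genes and 2 clock genes were called, Arntl at -0.918 (adjusted p = 0.0415) and Cry1 at -1.360 (adjusted p = 0.0407), Nr1d2 turned to 0.047 and Per3 to 0.511. Deviations of same-numbered samples from their group means had r = 0.398, -0.239, -0.162, 0.163 and 0.082, and 3 of 10 samples correlated best with their own number, so the numbers were not taken as a pairing.

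Per3 and Cry2, both near 0 in the main fit, changed sign, as did Arntl. Per3 was 0.178 by edgeR, 0.163 by DESeq2, 0.246 with library totals, 0.034 without mitochondrial genes, 0.043 with library block, 0.120 without block 1, 0.019 in blocks 1 to 3, 0.279 with quality weights and 0.271 without block 1 but with library block, the last added after seeing the data. Cry2 was -0.077 with library block, -0.318 without block 1, -0.009 with quality weights and -0.298 without block 1 but with library block. Arntl, at -0.461 in the main fit, was 0.002 and 0.061 in the fits without block 1. Within blocks 1, 2 and 3 the difference of Arntl was -0.814, 0.096 and 0.168 in log2 CPM, and block 1 held 1 pMCAO library. Leaving out each library, with and without the block term, gave 0 to 123 genes called, -0.682 to 0.047 for Arntl, -0.236 to 0.268 for Per3 and -0.313 to 0.176 for Cry2. With library block the count ran from 4, without sham replicate 6, to 123, without pMCAO replicate 3, and was 6 without pMCAO replicate 1.

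Between the blocks, library totals gave 3892 genes and 5 clock genes called against 2560 and 2, totals without mitochondrial genes gave 4 clock genes, and leaving out each library gave 937 to 3038 genes and 1 to 3 clock genes, the lowest of both without pMCAO replicate 1. For block 1 minus blocks 2 and 3, library totals gave 4660 genes and 6 clock genes against 2827 and 3, with Clock at -0.503, Per1 at -0.485, Per2 at -0.773 and Nr1d1 at -0.248. Totals without mitochondrial genes gave -0.103, -0.145 and -0.354 for Clock, Per1 and Per2, and Per2 was -0.011 by edgeR and -0.006 by DESeq2. Leaving out each library gave 1042 to 3337 genes, 2 to 3 clock genes and -0.184 to 0.229 for Per2. For block 3 minus block 2, 1 gene was called by limma-voom, 0 by edgeR, 22 by DESeq2, 0 with library totals, 2 without mitochondrial genes and 0 in blocks 2 and 3 only, a choice made after seeing the data, and leaving out each library gave 0 to 6 genes, -0.047 to 0.353 for Cry2 and -0.136 to 0.453 for Per1. The mean balance of pMCAO minus sham stayed within the spread between libraries under each alternative, at -0.088 to 0.110 with each library left out. The causes of these changes were not tested.

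Depth limits Dbp most, with 0 to 11 counts per library in block 1, and 1 library stands for block 4. The collection hour of each mouse is not given in the sources used here, so group, hour and block cannot be fully told apart.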

Other observations

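The genes with the pattern most like Arntl were sought over the 12 libraries by Pearson's r of log2 CPM with block means subtracted, among 8207 genes with a mean of at least 5 CPM. The highest were Med13 (0.948), Ist1 (0.888), Igsf3 (0.877), Dhx16 (0.877) and Il11ra1 (0.874). The most opposite were Slc25a10 (-0.913), Ccng1 (-0.895), Anxa6 (-0.893), Ndufs6 (-0.875) and Vamp4 (-0.875). None of these 10 is among the clock lists used here. For Dbp, among 8208 genes, the highest were Tmem82 (0.976), Sptbn1 (0.970), Fermt1 (0.941), Ythdf3 (0.930) and Exph5 (0.926), and the most opposite were Magt1 (-0.975), Rpl39-ps (-0.971), Cdk2ap2 (-0.961), Rps24 (-0.947) and Tmcc1 (-0.940). The Dbp values include the few counts of block 1, with 0 in pMCAO replicate 1, and values this far from 0 are the extremes of all genes compared, over libraries that share depth and cell makeup, so they are given as a description with no p.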
